A study of Rattus norvegicus with 12 samples.

Results

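Transporters that move bile salts, phospholipid, sterols, conjugates and organic ions across the hepatocyte membrane were followed in rats after a thermal injury. The group holds 10 genes, namely Abcb11, Abcc2, Abcb4, Abcb1a, Abcg5, Abcg8, Abcc3, Slc22a7, Slc22a8 and Slc22a5, of the 10411 genes measured. A probe set was taken for a gene where the platform's annotation named that gene and no other, which gave 11 probe sets of 15866, 2 of them for Abcb1a. The 10 genes were chosen by name and function, with earlier results of these data known. No filter on low values was used, so all 10 were tested. Rats with thermal injury were compared with sham-treated rats at days 2, 4 and 7 on the Affymetrix array RAE230A. Each day has 3 samples, 9 altogether, and each is given as a pair of channels, with thermal injury in the one and sham control in the other, and gave a single log2 ratio per probe set. The 3 samples of day 1 were not used, because their identifiers do not stand for the same probe sets as those of the other days. The labels name no tissue, strain, sex or age of the rats, nor do they tell whether 1 animal stands behind each sample. The p-values therefore measure only the spread between these samples, which may be technical.

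The hepatocyte takes up solutes from blood and secretes into bile across its canalicular membrane, mostly through ATP-binding cassette (ABC) pumps that spend ATP on each cycle of transport. Bile salt export by Abcb11 drives bile flow, and phospholipid and sterol follow through Abcb4 and through the dimer of Abcg5 and Abcg8. The Slc22 carriers work without ATP and exchange organic anions, cations or carnitine with blood. In liver disease with bile retention or inflammation these genes are known to be regulated by nuclear receptors. The name hepatic comes from this background, and was set against marker genes through array signals traced back from the ratios. Ratios that could not be traced were set to a ceiling, a log2 of 14.29, so a marker at the ceiling rests on untraced ratios. Log2 of the median smaller signal over the 9 arrays was at the ceiling of 14.29 for 14 of 15 hepatocyte markers, and was 11.24 for the other, Fgb. It lay between 4.86 and 9.53 for 11 kidney markers, with 0 at the ceiling, and 1 of 7 small intestine markers was at the ceiling. So were 2 of 12 macrophage markers and 1 of 4 red cell markers, but 0 of 9 cholangiocyte and 0 of 16 exocrine pancreas markers. Different probe sets bind with different strength, so these signals describe the markers and do not rank transcripts.

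Abcg5 and Abcg8 stand head to head in the rat genome, and their sequence is shown because these were the transporters whose ratios moved together most closely. The 300-base windows around their starts (250 bases before and 50 from the start) overlap by 295 bases on opposite strands of chromosome 6, and 205 bases lie between the 2 starts. Of all 33469 promoter windows in the RefSeq table of build GRCr8, 0.281% overlap a window of the opposite strand by as much. The window of Abcg5 is chr6:15717686-15717985 on the plus strand, and that of Abcg8 is chr6:15717681-15717980 on the minus strand. Capitals mark the bases between the start of Abcg8, on the left, and the start of Abcg5, on the right.
Abcg5: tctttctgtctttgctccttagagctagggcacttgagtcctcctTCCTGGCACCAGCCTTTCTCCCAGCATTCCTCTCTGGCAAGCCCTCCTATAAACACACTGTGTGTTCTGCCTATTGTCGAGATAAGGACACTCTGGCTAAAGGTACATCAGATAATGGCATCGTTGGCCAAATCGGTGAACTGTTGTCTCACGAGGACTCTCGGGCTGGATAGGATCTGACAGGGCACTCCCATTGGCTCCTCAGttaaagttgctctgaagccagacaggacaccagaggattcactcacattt
Motifs were searched on both strands. The stretch in capitals holds AGATAA, the motif of GATA factors, with first bases at -126 and -96 from the Abcg5 start, and TATAAA at -158, and these matches do not overlap. AGATAA occurs in 11.6% and TATAAA in 14.2% of all windows, and of the 8 transporters with a window in the table only Abcg5 and Abcg8 hold either, through the same matches in the bases they share. Abcb11 and Abcc3 were not searched. CCAAT occurs in 37.5% of all windows and in those of Abcc2, Abcg5, Abcg8 and Slc22a7. The bile acid receptor element IR1, as inverted copies of AGGTCA with 1 base between, was in 0.0269% of all windows and in 0 of the 8. The NR5A2 element, as AGGTCA directly preceded by TCA, was in 0.433% of all windows and in 0 of the 8. Such matches are descriptions of letters, and binding was not measured.

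Values are log2 ratios centred on the median of each array, which lay between -0.13 and 0.16 before centring. Thermal injury over sham is the likely order of the ratio, since injury is the second and sham the first channel in the labels. Values above 0 are taken as higher after injury, and each direction depends on this order, which is not stated. Tests are from limma over all 10411 genes with Benjamini-Hochberg adjustment, and a call needs an adjusted p under 0.05. No transporter passed in any of the 8 comparisons, which were the 3 days, their mean, the 3 differences between days and the F test among days. Lower RNA per cell and fewer cells of a type cannot be told apart in such samples.

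**Figure D1:**
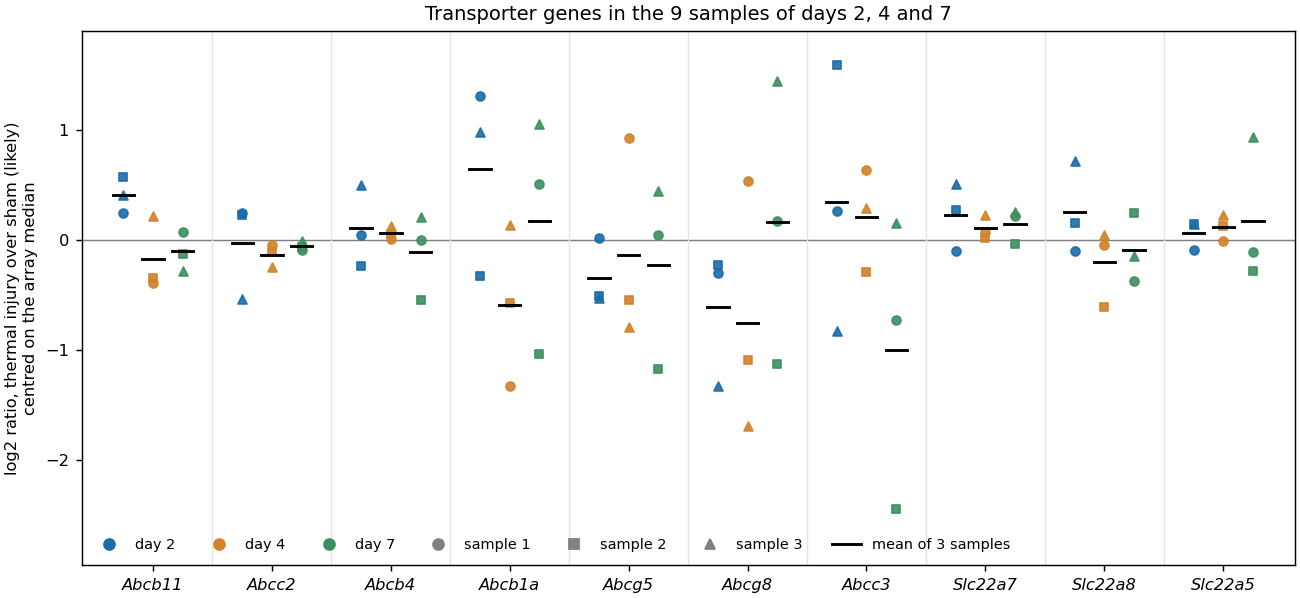
Log2 ratio of thermal injury over sham (likely order; vertical axis, centred on the array median) for the 10 transporters, with 3 samples for each of days 2, 4 and 7 in colour, sample number by marker shape, and the day mean as a black bar. Abcb11 at day 2 lies above 0 in all 3 samples, while Abcc3 has the widest range, -2.44 to 1.59, and Slc22a7 the narrowest, -0.10 to 0.51.

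Abcb11, the bile salt export pump, had the clearest pattern over time of the 10 and did not pass. Its log2 ratio was 0.25, 0.58 and 0.41 in samples 1 to 3 of day 2 (mean 0.41 ± 0.16, SD, n = 3, which is 1.33-fold). It was -0.39, -0.34 and 0.22 in those of day 4 (mean -0.17 ± 0.34) and 0.08, -0.12 and -0.28 in those of day 7 (mean -0.10 ± 0.18). All 3 samples of day 2 were above 0 and above every sample of days 4 and 7, which overlapped each other. At day 2 limma gave an unadjusted p of 0.0296 and an adjusted p of 0.603, with a 95% interval of 0.05 to 0.77. Abcb11 was the 1 transporter with an unadjusted p under 0.05 at day 2, where 7.77% of all genes had one, and the 1 transporter with all 3 samples above 0, where 13.8% of all genes did. Day 4 minus day 2 was -0.58 (SE 0.22, adjusted p = 0.648, limma) and day 7 minus day 2 was -0.52 (SE 0.22, adjusted p = 0.665). All 3 samples lay below the other 3 for 7.03% of genes between days 4 and 2 and for 7.15% between days 7 and 2, and for 1 of the 10 transporters, Abcb11, in each. They lay all above for 7.38% and 5.48% of genes, and for 0 of the 10. An unadjusted p under 0.05 was found for 7.59% and 7.45% of genes in these comparisons. The F test among days had its smallest p of all transporters here (adjusted p = 0.511, limma), in a test where 10% of genes had an unadjusted p under 0.05.

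Hepatocyte markers were also above 0 mostly at day 2. Of 15 measured markers, 14 had a mean above 0 at day 2, 5 at day 4 and 3 at day 7, while 50.8%, 51% and 48.4% of all genes did. Those shares are over genes of all signal levels, while 14 of the 15 markers and Abcb11 were at the signal ceiling. Shares among genes of like signal are not given. The marker median lay between -0.02 and 0.23 in the samples of day 2, between -0.20 and 0.05 in those of day 4 and between -0.15 and -0.09 in those of day 7. The median of the marker day means was 0.13, -0.03 and -0.13 at days 2, 4 and 7. Between days 4 and 7 the markers were split, with 7 higher and 8 lower at day 7 and a median difference of -0.02. The day mean of Abcb11 was lowest at day 4. Ttr, the plasma carrier transthyretin made by hepatocytes, is one of them and was the gene second in likeness to Abcb11 over the 9 samples (Pearson r = 0.928), after Mfsd11 (0.955) and before Edem1 (0.923), a factor of protein degradation in the endoplasmic reticulum. They were picked as the 3 highest of 10410 other genes, so these r are a description. The part of the hepatocyte markers in the Abcb11 values was not tested.

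Abcc2, which exports bilirubin glucuronides and glutathione conjugates into bile, stayed near 0 in most samples. Its log2 ratio was 0.25, 0.23 and -0.53 at day 2, -0.04, -0.11 and -0.24 at day 4, and -0.09, -0.06 and -0.01 at day 7. Sample 3 of day 2 was lowest, and all 3 samples were below 0 at day 4 and again at day 7, as for 16.2% and 18% of all genes. Over the 3 days the mean was -0.07 (SE 0.10, adjusted p = 0.859, limma), and the 95% interval ran from 0.82-fold to 1.11-fold.

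Abcb4, which flips phosphatidylcholine into bile, and Abcb1a, a P-glycoprotein that exports drugs and other amphipathic compounds, lie near each other on chromosome 4 of build GRCr8. Abcb4 had log2 ratios of 0.05, -0.23 and 0.50 at day 2, 0.01, 0.06 and 0.13 at day 4, and 0.00, -0.54 and 0.21 at day 7. Its 3 samples of day 4 were all above 0, as for 18.3% of genes, and the days overlapped. The mean over the 3 days was 0.02 (SE 0.11, adjusted p = 0.963, limma; interval 0.858-fold to 1.20-fold).

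Abcb1a was much more spread, with 1.31, -0.32 and 0.98 at day 2, -1.32, -0.57 and 0.14 at day 4, and 0.51, -1.03 and 1.06 at day 7. Every day held samples on both sides of 0. Day 4 minus day 2 was -1.24 (SE 0.65, adjusted p = 0.701, limma), with a 95% interval of -2.73 to 0.25. Its 2 probe sets gave different values in some samples, most of all in sample 1 of day 7, where they were at 1.35 and -0.33. Another probe set is annotated to Abcb1a together with Abcb1b, its close paralog, and was left out. Over the 9 samples Abcb1a and Abcb4 had a Pearson r of 0.626 (exact permutation p = 0.0651, adjusted p = 0.692 over 45 pairs) and a Spearman rho of 0.533 (exact p = 0.148, adjusted p = 0.819). Leaving out samples 1 of days 2 and 4, the farthest from the median of Abcb1a, r was 0.836. Such a rise was not particular to Abcb4. Without the same 2 samples r of Abcb1a was 0.815 with Slc22a7, 0.744 with Abcg5, 0.633 with Slc22a5 and -0.424 with Abcc2. Over all 9 samples these were 0.351, 0.105, 0.41 and -0.07.

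Abcg5 and Abcg8, whose proteins form the dimer that pumps cholesterol and plant sterols into bile, varied widely between samples of the same day, and largely together. Abcg5 had log2 ratios of 0.02, -0.51 and -0.52 at day 2, 0.93, -0.54 and -0.79 at day 4, and 0.05, -1.17 and 0.45 at day 7. Abcg8 had -0.30, -0.22 and -1.32 at day 2, 0.54, -1.09 and -1.69 at day 4, and 0.18, -1.12 and 1.45 at day 7. Sample 1 of day 4 and sample 3 of day 7 were high for both genes, while sample 3 of day 2, samples 2 and 3 of day 4 and sample 2 of day 7 were below -0.5 for both. Sample 3 of day 7, with the highest Abcg8 value, is also the array with the highest median before centring (0.16), the lowest GAPDH 3′ minus 5′ difference (-0.80) and a small intestine marker median of 1.13, and both genes are also expressed in intestine. Of the 7 intestine markers 6 were above 0 there, and Apoa4, the 1 at the signal ceiling, was at -0.88. The median log2 signal of these markers was 8.77. That array also had the largest SD of log2 ratios (0.87). The part of these values in the Abcg5 and Abcg8 ratios was not tested, and r between the genes without that array is given with the correlation. The 2 genes had the same sign in 8 of 9 samples, the exception being sample 1 of day 2.

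Pearson r between Abcg5 and Abcg8 over the 9 samples was 0.827 (exact permutation p = 0.00614, two-sided) and Spearman rho was 0.883 (exact permutation p = 0.00308). It was the highest of the 45 pairs of transporters, whose r ran from -0.596 to 0.827 with a median of 0.166. Adjusted over the 45 pairs, p was 0.276 for r and 0.138 for rho, so the relation did not pass, and it was the 1 pair with an unadjusted p under 0.05 for r. Without sample 1 of day 4 and sample 3 of day 7, the 2 samples farthest from the median of Abcg5, r was 0.735, and without sample 3 of day 7 alone it was 0.834. As a description, the deviations of each gene from its own day means had r = 0.926, and no day has enough samples for a value of its own. Among the 10410 other genes, Abcg8 ranked 26 in likeness to Abcg5, and Abcg5 ranked 40 in likeness to Abcg8.

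**Figure D2:**
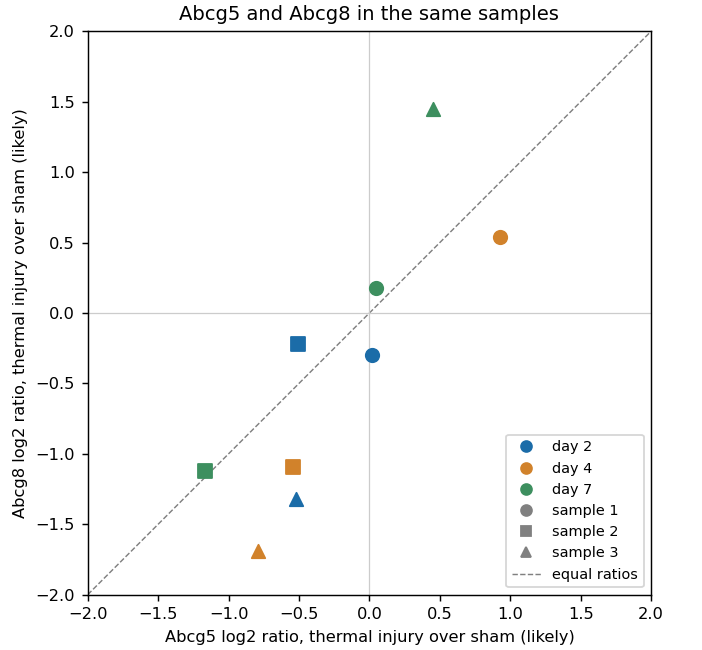
Log2 ratio of thermal injury over sham (likely order) of Abcg8, vertical axis, against that of Abcg5, horizontal axis, with 1 point per sample, days in colour and sample number by shape. The dashed line marks equal ratios, and the 9 points run from sample 2 of day 7 (-1.17 and -1.12) and sample 3 of day 4 (-0.79 and -1.69) up to sample 3 of day 7 (0.45 and 1.45).

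Neither sterol transporter gene differed from 0 beyond this spread. Over the 3 days Abcg5 averaged -0.23 (SE 0.22, adjusted p = 0.786, limma; 95% interval 0.599-fold to 1.21-fold). Abcg8 averaged -0.40 (SE 0.31, adjusted p = 0.73), with an interval of 0.466-fold to 1.24-fold. At day 2 all 3 samples of Abcg8 were below 0, as for 13.1% of genes, and its mean of -0.61 ± 0.61 had an adjusted p of 0.835.

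The ratios were traced back to pairs of whole numbers where this was possible, which gives the signals behind them up to a common factor. All 9 ratios of Abcg5 and of Abcg8 gave such a pair, in lowest terms. The true signals can be multiples of them, or fractions if the signals carried decimals, and the scaling is not given. For Abcg5 the signals recovered in sample 1 of day 4 were 12425 for injury and 6647 for sham, and in sample 2 of day 7 they were 3099 for injury and 6628 for sham. For Abcg8 they were 6451 for injury and 4541 for sham in sample 1 of day 4, and 1642 for injury and 3403 for sham in sample 2 of day 7. The smallest pairs recovered were 138 for injury and 215 for sham for Abcg5 in sample 2 of day 2, and 649 for injury and 212 for sham for Abcg8 in sample 3 of day 7. That Abcg8 pair belongs to its highest ratio, and in lowest terms it does not fix the level of the signals. For Abcg5 the pair recovered in sample 3 of day 7 was 841 for injury and 550 for sham, with the same limit. Which of these is injury follows from the same reading of the ratio.

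Spread between samples was larger at low signal. Brightness here is log2 of the median, over the 9 arrays, of the smaller recovered signal of a probe set, with ratios that could not be traced set to the cap of 20000, a log2 of 14.29. It serves to judge precision and does not rank genes by transcript number. With all genes split by brightness into 4 groups of 2602 or 2603, the median SD within days was 0.894, 0.451, 0.301 and 0.236 in groups 1 to 4, from dimmest to brightest. Abcc3, with an SD of 1.07, lay in group 1, where 63.4% of genes had a smaller SD. Abcb1a, at 0.902, lay in group 2, where 90.9% did. Abcg5, at 0.746, was in group 4, where 98.6% of genes had a smaller SD, and Abcg8, at 1.06, was in group 3, where 99.4% did. Abcb11, Abcc2 and Slc22a7, with SDs of 0.24, 0.263 and 0.209, had between 37.8% and 60.4% of group 4 below them. Slc22a8 and Abcb4, at 0.365 and 0.31, had 85.1% and 74.4% of group 4 below them. Slc22a5, at 0.396, had 75.1% of group 3 below it.

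**Figure D3:**
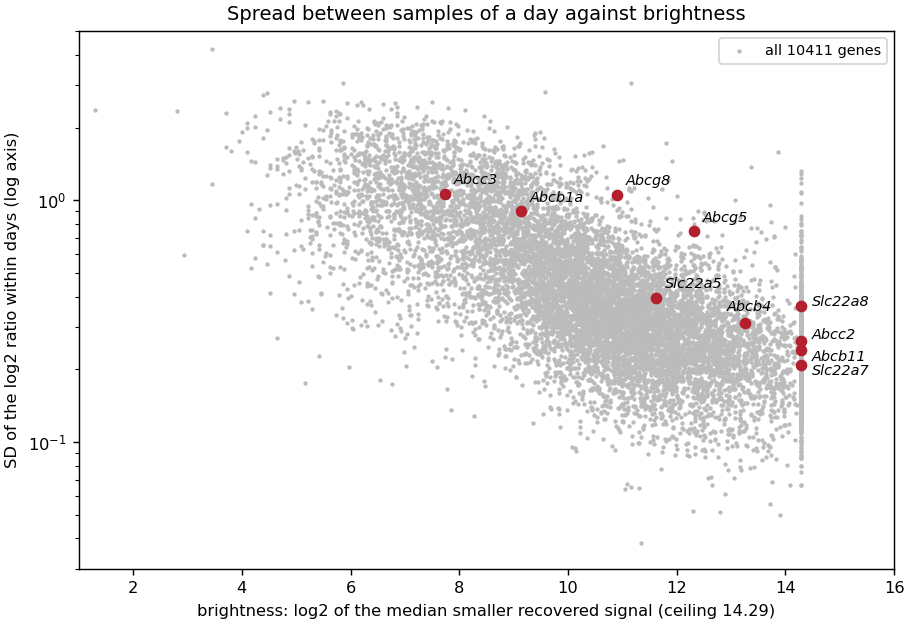
SD of the log2 ratio within days (log axis) against brightness (log2 of the median smaller recovered signal) for all 10411 genes in grey and the 10 transporters in red. Abcg5 and Abcg8 stand above most genes of their brightness, and 4 transporters lie at the ceiling of 14.29.

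Abcc3, which exports conjugates across the basolateral membrane back to blood, was measured at low signal. Its smaller recovered signal ran from 9 to 509, with a median of 213, and 12.8% of genes were dimmer. These signals are in lowest terms, so each gives the true signal only up to an unknown factor. Log2 ratios were 0.27, 1.59 and -0.82 at day 2, 0.64, -0.29 and 0.29 at day 4, and -0.72, -2.44 and 0.16 at day 7. Samples on both sides of 0 were found on every day. The day 7 mean was -1.0 ± 1.32 (SD, n = 3; adjusted p = 0.541, limma), with a 95% interval of 0.212-fold to 1.18-fold, so neither a fall of that size nor the absence of a change could be shown. The mean was -0.28 without sample 2 and -1.58 without sample 3 (adjusted p = 0.889 and 0.7, limma). At day 7, 0 of the 10 transporters had an unadjusted p under 0.05, as did 10.9% of all genes.

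Slc22a7, an organic anion carrier of liver and kidney, had the narrowest range of the 10. Its log2 ratio was -0.10, 0.28 and 0.51 at day 2, 0.08, 0.02 and 0.23 at day 4, and 0.22, -0.03 and 0.26 at day 7. It was above 0 in 7 of 9 samples, and the 2 below were close to 0. Over the 3 days it averaged 0.16 (SE 0.08, adjusted p = 0.609, limma), the smallest of all transporters in that comparison, where 8.98% of genes had an unadjusted p under 0.05. The 95% interval ran from 0.98-fold to 1.28-fold. The genes most like it over the 9 samples were Acadm, a mitochondrial enzyme of fatty acid oxidation (Pearson r = 0.956), the cytochrome P450 gene Cyp2c6v1 (0.942) and the histamine receptor gene Hrh1 (0.914).

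Slc22a8, an organic anion carrier best known from kidney, had log2 ratios of -0.10, 0.16 and 0.72 at day 2, -0.04, -0.61 and 0.05 at day 4, and -0.37, 0.25 and -0.14 at day 7. No day had its 3 samples on one side of 0, and the mean over the 3 days was -0.01 (SE 0.12, adjusted p = 0.987, limma; interval 0.821-fold to 1.20-fold).

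Slc22a5, which carries carnitine into cells and also moves organic cations, had -0.09, 0.15 and 0.15 at day 2, -0.01, 0.13 and 0.23 at day 4, and -0.11, -0.28 and 0.94 at day 7. Sample 3 of day 7 stood apart from the other 8, and without it the day 7 mean was -0.20 in place of 0.18. For the GAPDH control probe sets that array had a 3′ minus 5′ difference of -0.80, against -0.42 to 0.31 in the other 8, and its beta-actin difference of -0.88 equalled that of sample 1 of day 7. Its median over 7 small intestine markers was 1.13, against -0.39 to 0.36 in the other 8 arrays. Apoa4, the 1 of these markers at the signal ceiling, was at -0.88 there. The part of these values in the Slc22a5 ratio was not tested.

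Taking the 10 genes as a group, 7 had a mean above 0 at day 2, 4 at day 4 and 4 at day 7, while 50.8%, 51% and 48.4% of all genes did. Their median log2 ratio was 0.17 at day 2, -0.13 at day 4 and -0.07 at day 7, and that of all genes was 0.00, 0.01 and -0.01. By limma, 0 of 10411 genes were called at day 2, day 4 or day 7 (0% in each), with 809, 917 and 1139 at an unadjusted p under 0.05. With a variance prior that follows brightness, 15, 0 and 5 genes were called on these days, none of them a transporter. Over the 3 days together 4 genes (0.0384%) were called, or 34 with that prior, and 0 of the 10 transporters in either. Day 4 had an unadjusted p under 0.05 for 0 of the 10 and 8.81% of all genes. Between days 7 and 4 it was 0 of the 10 and 11.7% of all genes, and no transporter had its 3 samples of day 7 all above or all below those of day 4, while 8.58% and 11.1% of genes did.

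**Figure D4:**
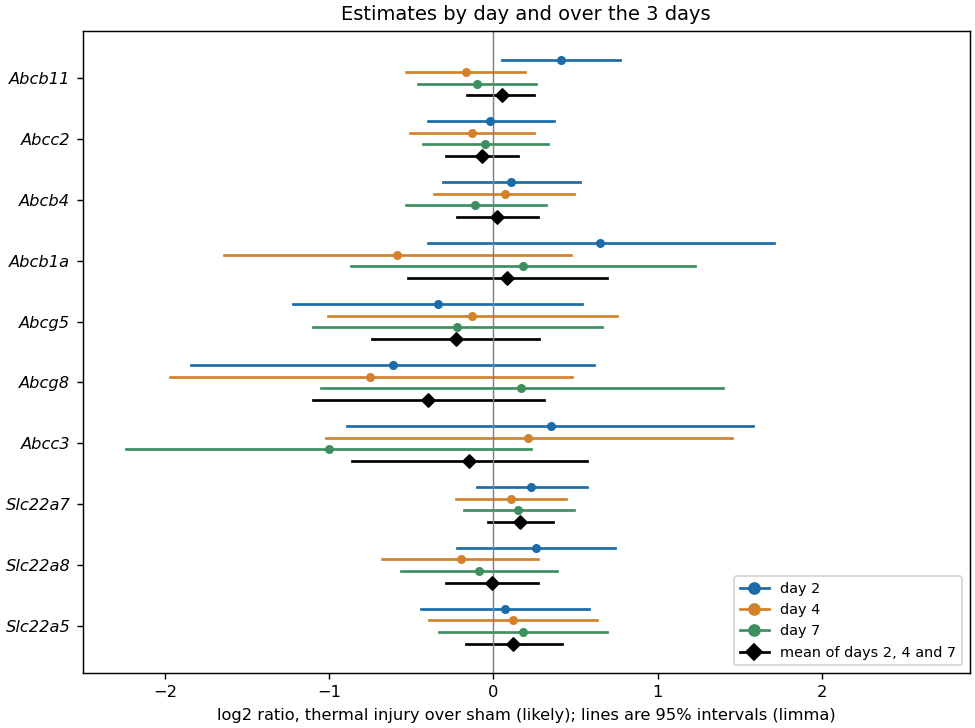
Estimated log2 ratio of thermal injury over sham (likely order, horizontal axis) for each transporter at days 2, 4 and 7 and for their mean, with 95% intervals from limma as lines. The interval of Abcb11 at day 2, 0.05 to 0.77, is the 1 of the 40 drawn that leaves out 0, without adjustment over genes.

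Other genes of the pathway, from 5 lists, gave no calls. Of 12 other ABC transporters measured, 0 passed in any comparison, and their medians were 0.03, -0.26 and -0.06 at days 2, 4 and 7. The 2 with the smallest p over the 3 days were Abcg1, a sterol exporter, at 0.18 (SE 0.11, adjusted p = 0.651) and the lipid transporter Abca3 at -0.22 (SE 0.15, adjusted p = 0.685). Of 19 other carriers of organic ions and bile acids, 0 passed, and 12, 4 and 12 had a mean above 0 at days 2, 4 and 7. The prostaglandin carrier Slco2a1 was at 0.20 over the 3 days (SE 0.08, adjusted p = 0.544). Slco1a4, a basolateral organic anion carrier, was at -0.37 (SE 0.16, adjusted p = 0.551).

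Bile acid synthesis and conjugation had 15 genes measured, of which 0 passed. With 11 of 15 above 0 at day 2, 9 at day 4 and 1 at day 7, the medians were 0.17, 0.05 and -0.14. Cyp7a1, the rate-limiting enzyme of bile acid synthesis, ran from -0.68 to 2.37 over the 9 samples, with a mean of 0.73 (SE 0.34, adjusted p = 0.574). Cyp8b1, the sterol 12-alpha-hydroxylase, was at -0.22 (SE 0.09, adjusted p = 0.514), below 0 in 7 of 9 samples.

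Among 23 regulators of transporter genes, 0 passed. Over the 3 days 5 of the 23 were higher and 3 of the 23 lower at an unadjusted p under 0.05, against 4.64% and 4.34% of all genes. The 5 higher were Nr0b2 (0.81), Hnf4a (0.40), Ppara (0.71, at a brightness of 7.585), Nr5a2 (0.45) and Ppargc1a (1.44, at a brightness of 4.09). Their adjusted p over the 3 days lay between 0.32 and 0.413 (limma). They were not higher on every day. Day 4 means were -0.26 for Hnf4a, -0.12 for Nr5a2, -0.75 for Ppargc1a and -0.004 for Ppara. Nr0b2 had a mean of 1.39 at day 4 and 0.02 at day 7. The 3 lower were Nfe2l2 (-0.32, adjusted p = 0.385, limma), Nr1i3 and Foxa2. Nr1i3, a nuclear receptor that induces drug-handling genes including Abcc2 and Abcc3, was below 0 in 8 of 9 samples, at -0.47 (SE 0.11, adjusted p = 0.265). Foxa2, a liver transcription factor that controls bile acid genes, was also below 0 in 8 of 9, at -0.74 (SE 0.15, adjusted p = 0.223). Of 7 genes that anchor or traffic canalicular transporters, 0 passed, and the scaffold genes Pdzk1 and Nherf1 were at -0.19 (SE 0.10, adjusted p = 0.599) and 0.33 (SE 0.30, adjusted p = 0.771).

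Exocrine pancreas markers differed between arrays, with medians over 16 genes of 0.19, 2.76 and 1.53 in samples 1 to 3 of day 4 and between -0.20 and 0.32 in the other 6 arrays. Medians of 11 kidney markers lay between -0.27 and 0.41, of 9 cholangiocyte markers between -0.57 and 0.15, of 12 macrophage markers between -0.30 and 0.45 and of 4 red cell markers between -0.37 and 0.83. Samples 2 and 3 of day 4, with the highest pancreas medians, were also low for Abcg5 and Abcg8, as were sample 2 of day 7 and sample 3 of day 2, whose pancreas medians were -0.13 and -0.20. The part of the pancreas markers in the transporter values was not tested.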

How the data were processed

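The authors deposited log2 ratios, 1 value per probe set and sample, for 12 samples. Scaling, software and genome build: not given in the sources used here, and the order of the ratio is likely thermal injury over sham. Of 15923 probe sets, 57 controls were left out. Gene symbols came from the platform annotation, and 12748 of the 12783 probe sets with 1 symbol matched the GRCr8 gene table. Each array was centred on its median, and probe sets of a gene were averaged. Whole-number signals were recovered from the ratios by continued fractions (tolerance 1e-09, cap 20000), for 94.0% to 94.7% of ratios of an array, against 12.1% to 13.3% of values shifted at random. The count of arrays limits the precision.

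limma 3.58.1 in R 4.3.3 was fitted to the 9 samples of days 2, 4 and 7 with a mean per day and 6 residual degrees of freedom, and tested on simulated data. Correlations used exact permutation over 362880 orders. The transporters and lists were chosen with earlier results of these data known. Every transporter is named. Of the other pathway lists, genes past the threshold and the 2 with the smallest p over the 3 days are named. Regulators with an unadjusted p under 0.05 over the 3 days were added after their values were seen. For likeness, the 3 genes with the highest Pearson r are named for the transporter with the smallest p in the F test and for that with the smallest p over the 3 days. Other pairs, and the promoter windows shown, were chosen after their values were seen. Alternatives were centring, the variance prior, array weights, dim probe sets, the choice of probe set, sample number as a block and leaving out each sample.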

Additional observations from a re-analysis of the deposited data

Results flagged for a closer look

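Slco2a1, the prostaglandin carrier, had every sample of day 4 below 0 (-0.13, -0.44 and -0.27) and every sample of day 2 (0.25, 0.80 and 0.36) and day 7 (0.54, 0.35 and 0.32) above 0, which drew attention to it. Day 4 minus day 2 was -0.75 and day 7 minus day 4 was 0.69, and neither difference passed over all genes (limma, adjusted p = 0.516 and 0.295). Samples of day 4 all lay below those of day 2 for 7.03% of genes. Samples of day 7 all lay above those of day 4 for 8.58%. Only the transporters and the 2 genes with the smallest p of each list were searched. Outside that search, Hnf4a had the same pattern, with -0.03, -0.14 and -0.61 at day 4. Slc22a4, Slco2b1, Ahr, Cyp27a1 and Hsd3b7 had opposite signs between days 4 and 7 in all samples.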

How the results depend on the processing

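Of 1440 recomputed values of single transporters (80 results, 9 kinds of setting and 9 fits without a sample), 0 passed, with a smallest adjusted p of 0.323 (limma). The sign changed in 71, all of values that did not pass. The other 1369 include the F values, which have no sign to change. Without centring, Abcc2 came to 0.032 at day 7 and 0.082 for day 7 minus day 2, Slc22a7 to 0.041 for day 7 minus day 2, and Abcg5 to 0.034 for day 7 minus day 4. Centred on the mean, Slc22a7 came to -0.015 for day 7 minus day 4. Centred on brighter probe sets, Abcc2 came to 0.013 at day 7 and 0.040 for day 7 minus day 2, and Slc22a8 to 0.00475 over the 3 days. With array weights, Slc22a5 came to -0.020 for day 7 minus day 4. The brighter probe set of Abcb1a gave -0.22 at day 7, and the other gave 0.14 for day 7 minus day 2. Abcc3 had no value when dim probe sets were left out.

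The lowest and highest values in the fits without 1 sample follow for transporters whose sign changed. At day 2 they were -0.088 and 0.28 for Abcb4, -0.15 and 0.24 for Abcc2 and -0.28 and 0.93 for Abcc3. At day 4 they were -0.67 and 0.20 for Abcg5 and -0.33 and 0.0013 for Slc22a8. At day 7 they were -0.26 and 0.78 for Abcb1a, -0.27 and 0.11 for Abcb4, -0.555 and 0.25 for Abcg5, -0.47 and 0.82 for Abcg8, -0.20 and 0.41 for Slc22a5 and -0.26 and 0.057 for Slc22a8. Over the 3 days they were -0.019 and 0.083 for Abcb11, -0.064 and 0.28 for Abcb1a, -0.0425 and 0.095 for Abcb4, -0.11 and 0.018 for Abcc2, -0.355 and 0.092 for Abcc3, -0.00326 and 0.20 for Slc22a5 and -0.086 and 0.058 for Slc22a8. For day 4 minus day 2 they were -0.21 and 0.155 for Abcb4, -0.37 and 0.012 for Abcc2, -0.715 and 0.49 for Abcc3, -0.33 and 0.535 for Abcg5, -0.78 and 0.33 for Abcg8, -0.032 and 0.11 for Slc22a5 and -0.28 and 0.019 for Slc22a7. For day 7 minus day 2 they were -0.962 and 0.13 for Abcb1a, -0.29 and 0.094 for Abcc2, -0.22 and 0.59 for Abcg5, -0.27 and 0.34 for Slc22a5 and -0.24 and 0.062 for Slc22a7. For day 7 minus day 4 they were -0.046 and 0.26 for Abcb11, -0.33 and 0.041 for Abcb4, -0.42 and 0.45 for Abcg5, -0.32 and 0.29 for Slc22a5, -0.013 and 0.135 for Slc22a7 and -0.087 and 0.26 for Slc22a8. The cause was not tested beyond the fewer samples in these fits.

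Counts of genes called over all genes moved more. Over the 3 days 4 genes were called, against 2 when centred on the mean, 34 with the variance prior following brightness, 8 without dim probe sets, 2 when each probe set was tested, and between 0 and 3 without 1 sample. At day 2 the 0 became 15 with that prior and 3 without dim probe sets, at day 4 it became 2 with array weights, and at day 7 it became 5 with the prior and 1 by probe set. Day 7 minus day 4 gave 3 with the prior and 1 by probe set, and the F test gave 1 with the prior. Without 1 sample the counts lay between 0 and 1 at day 2, day 4 and day 7, and between 0 and 1 for day 4 minus day 2 and day 7 minus day 4. With the sample number as a replicate block, 0 genes were called over the 3 days in place of 4. Samples of the same number in different days did not deviate together (r between -0.041 and 0.0682 over 9 pairs, against -0.122 to 0.106 over the other 18). The own number correlated best in 3 of 18 cases. Whether such samples shared handling cannot be told from these correlations. In settings chosen after seeing the data, r of Abcg5 with Abcg8 was 0.849 without centring, 0.816 with centring on the mean, and between 0.81 and 0.854 without 1 sample.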
